A study of Mus musculus with 33 samples.

Results

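The transcripts described here are those of YAP, TAZ, the TEAD factors and the Hippo kinases: Yap1, Wwtr1 (which encodes TAZ), Tead1, Tead2, Tead3, Tead4, Lats1, Lats2, Sav1 and Vgll4. They were chosen by symbol and not by a cut on their values, 10 of the 21671 genes in the expression table. Earlier results of these data were known when the choice was made. RNA-seq was performed on 33 livers and liver tumours of C57BL/6 mice in a study of MYC and β-catenin. In the first set, mice of 6 to 8 weeks were given AAV8-TBG-CRE, an adeno-associated virus in which the hepatocyte promoter TBG drives Cre recombinase, and whole livers were taken after 4 days. This set held 5 wild-type (WT) livers, 5 with a β-catenin allele that loses exon 3 on Cre action and so gives a stabilised protein (Ex3), 5 with a Cre-activated MYC transgene at Rosa26 (R26-lslMYC, called MYC) and 5 with both alleles (MYC+Ex3). All 20 livers, the WT controls included, received the virus. In the second set, nodules were taken from livers with Alb-CreERT2, a Cre driven by the hepatocyte albumin promoter and activated by 4-hydroxytamoxifen (4-OHT), together with R26-lslMYC (3 MYC tumours) or with R26-lslMYC and the Ex3 allele (3 MYC+Ex3 tumours). Their controls were 7 WT livers taken 4 days after intraperitoneal 4-OHT. The labels give no age for the tumour-bearing mice, do not say whether the WT 4-OHT livers carried Alb-CreERT2, and set a nodule against whole liver, so tumour stage, Cre and genotype cannot be told apart in this set.

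The Hippo pathway restrains organ size. STK3 and STK4, the mammalian Hippo kinases, act with the scaffold SAV1 to activate LATS1 and LATS2, which phosphorylate the coactivators YAP and TAZ and keep them out of the nucleus. Unphosphorylated YAP and TAZ bind DNA through TEAD factors, with which VGLL4 competes as a repressor. In the liver, loss of the upstream kinases or forced YAP activity leads to overgrowth and tumours. The pathway works largely through phosphorylation, so transcript levels of its members do not measure its activity. LATS2 is itself a known transcriptional target of YAP and TAZ.

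Promoter sequences were available for 8 of the 10 genes, from RefSeq on build GRCm38.p6. The 250 bases before the first annotated start are shown for the 2 genes that passed the test with MYC on day 4 (Lats2, Wwtr1), for Vgll4, the member with the smallest unadjusted p with Ex3, and for Yap1. All 4 genes lie on the minus strand, and the sequences run 5′ to 3′ in the direction of transcription. The windows are chr14:57746124-57746373 for Lats2, chr3:57575911-57576160 for Wwtr1, chr6:114969204-114969453 for Vgll4 and chr9:8004597-8004846 for Yap1. Capitals mark matches on either strand to CACGTG (the E-box that MYC with its partner MAX can bind), GGAATG or its complement CATTCC (the core of the TEAD motif), and CTTTGAT or its complement ATCAAAG (a core of the TCF/LEF motif).
Lats2: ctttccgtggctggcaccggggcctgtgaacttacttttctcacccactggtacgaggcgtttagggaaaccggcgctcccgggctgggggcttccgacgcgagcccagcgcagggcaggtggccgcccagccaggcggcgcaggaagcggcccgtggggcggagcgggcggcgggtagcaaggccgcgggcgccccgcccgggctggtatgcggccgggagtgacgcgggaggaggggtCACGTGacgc
Wwtr1: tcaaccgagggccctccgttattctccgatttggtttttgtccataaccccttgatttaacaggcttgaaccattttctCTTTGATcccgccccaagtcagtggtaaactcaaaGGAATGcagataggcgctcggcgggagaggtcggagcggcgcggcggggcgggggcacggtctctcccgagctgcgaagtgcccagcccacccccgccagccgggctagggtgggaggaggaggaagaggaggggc
Vgll4: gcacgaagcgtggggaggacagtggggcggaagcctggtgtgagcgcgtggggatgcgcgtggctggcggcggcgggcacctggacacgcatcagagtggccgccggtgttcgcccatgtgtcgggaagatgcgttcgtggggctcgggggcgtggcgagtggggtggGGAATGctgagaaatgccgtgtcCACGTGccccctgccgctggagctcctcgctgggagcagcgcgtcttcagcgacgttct
Yap1: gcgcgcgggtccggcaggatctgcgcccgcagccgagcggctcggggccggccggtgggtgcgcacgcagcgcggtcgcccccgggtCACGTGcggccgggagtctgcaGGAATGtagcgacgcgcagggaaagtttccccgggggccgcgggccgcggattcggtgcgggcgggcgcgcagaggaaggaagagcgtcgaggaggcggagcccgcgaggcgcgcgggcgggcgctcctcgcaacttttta
Counted back from the start, the E-box covered bases 10 to 5 in Lats2, bases 59 to 54 in Vgll4 and bases 163 to 158 in Yap1, and Wwtr1 had none in this window. GGAATG covered bases 136 to 131 in Wwtr1, 82 to 77 in Vgll4 and 141 to 136 in Yap1, and CTTTGAT covered bases 171 to 165 in Wwtr1. Of the 8 genes, 3 held CACGTG, 5 held GGAATG and 1 held CTTTGAT at the first start. Over all 32851 promoter windows of this length the shares were 6.02%, 12.6% and 3.21%. The E-box therefore stood before a gene that fell with MYC (Lats2) and before a gene that did not pass the test (Yap1). A match of letters shows no binding.

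Values are RPKM, a read density that is scaled for transcript length and library size, and the RPKM of the 2 sets are on different scales, so levels are compared within a set. The day 4 livers had about 3749020 to 7313990 reads in genes and the second set had about 6648580 to 9823990. All 7 hepatocyte markers on a fixed list were detected, with a summed RPKM of 922 to 1663 per day 4 liver, 219 to 304 per WT 4-OHT liver and 177 to 304 per tumour. Axin2, a general β-catenin target, ranged from 10.6 to 24.9 RPKM in Ex3 livers against 2.73 to 4.30 in WT livers, and from 7.63 to 11.3 in MYC+Ex3 tumours against 0.0946 to 0.660 in MYC tumours. Transcripts of Krt5, Krt14 and Krt17, keratins of skin, summed to between 3.95 and 23.8 RPKM in 10 of the 20 day 4 livers and to at most 0.398 in the other 10. The keratin-bearing livers were 3 WT, 3 Ex3, 1 MYC and 3 MYC+Ex3, so calls of members and of the listed pathway and target genes that were lost within one keratin class are named with the result. By Xist and Ddx3y, the day 4 males numbered 2 among the WT livers, 3 among the Ex3 livers, 3 among the MYC livers and 4 among the MYC+Ex3 livers. In the second set males numbered 4 of the 7 WT 4-OHT livers, all 3 MYC tumours and 2 of the 3 MYC+Ex3 tumours, so sex was not balanced there. The library of MYC liver 5 held both Xist (86.1 RPKM) and the male transcript Ddx3y (4.74), and values without it are given for day 4 results that rest on it.

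Differences were tested with limma on log2(RPKM + 1), and a gene is called when its p-value, adjusted by Benjamini-Hochberg over all genes tested, is under 0.05. Log2 changes, their standard errors (SE) and 95% intervals are on this scale, which understates the change of low genes. Genes at an RPKM of 1 or more in at least 3 libraries were tested, 13688 on day 4 and 11854 in the second set. This left out Tead2 and Tead4 on day 4 and Tead4 in the second set. The livers are separate animals by their labels, so p-values measure the spread between animals. Against a no-change line, the median gene moved by 0.19 in MYC tumours and 0.23 in MYC+Ex3 tumours relative to WT 4-OHT livers, and by at most 0.07 in the day 4 comparisons. Rescaling each library by its median ratio removed this shift and changed the share of calls that were higher. That share went from 72.6% to 49.4% in MYC tumours, from 69.7% to 50.6% in MYC+Ex3 tumours and from 75.9% to 58.4% in MYC livers. In MYC+Ex3 livers it went from 74.4% to 60.0%, and in their comparison with Ex3 livers from 77.7% to 64.8%.

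On day 4 the coactivator and kinase transcripts were the abundant members. In WT livers Lats1 was highest (24.2 ± 3.13 RPKM, SD, n = 5), followed by Wwtr1 (15.2 ± 0.793), Sav1 (14.8 ± 1.86) and Yap1 (14.8 ± 1.33), which overlapped one another. Lats2 (9.44 ± 0.781) and Vgll4 (7.20 ± 2.23) came next and overlapped each other, then Tead1, whose range also met that of Vgll4, (5.02 ± 1.17) and Tead3 (4.02 ± 1.22), also overlapping, and last Tead4 (0.709 ± 0.183) and Tead2 (0.666 ± 0.220). MYC changed 2 of the 8 members tested, both downward: Lats2 and Wwtr1. In this comparison 5.36% of all genes tested were called lower and 16.9% higher. Both alleles together changed 1 member against WT livers, Lats2 (6.18% of genes called lower and 17.9% higher), and 1 against Ex3 livers, again Lats2 (4.70% lower and 16.4% higher). Ex3 alone changed none, in a comparison where 0.132% of genes were called. With 8 members, none of these counts sets the members apart from the other genes.

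**Figure D1:**
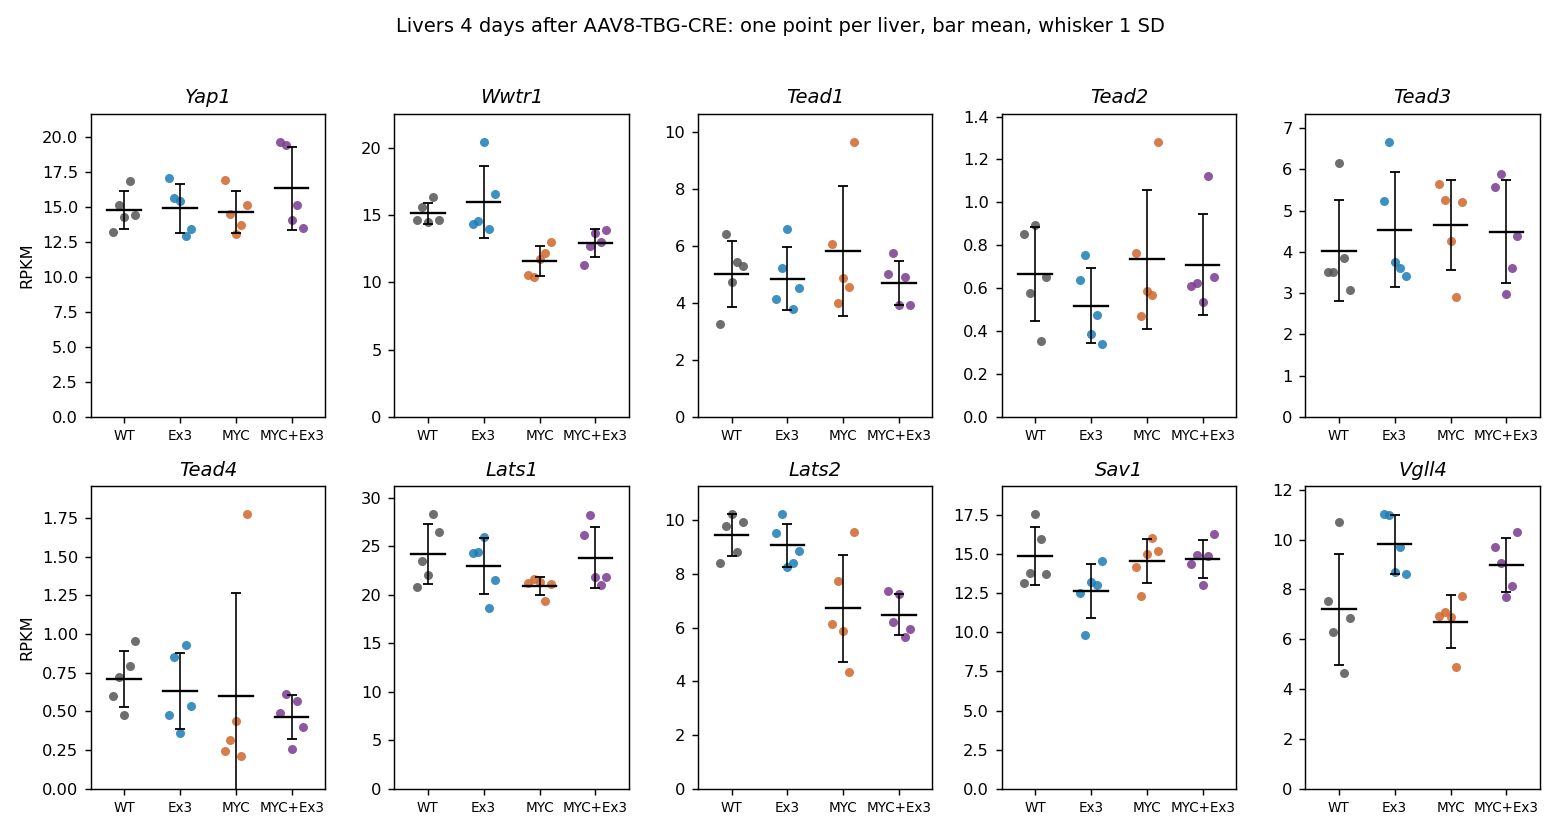
RPKM of the 10 genes (y axes, each from 0) in the 20 livers taken 4 days after AAV8-TBG-CRE, by genotype (x axes). Each point is 1 liver, the bar is the mean and the whisker is 1 SD (the lower whisker of Tead4 in MYC livers is cut at 0); Wwtr1 lies at 10.4 to 13.1 in MYC livers and at 14.5 to 16.3 in WT livers, and Lats2 is lower in all MYC+Ex3 livers than in all WT livers.

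Yap1, the coactivator gene on which most liver Hippo work rests, was level across the 4 genotypes. It measured 13.2, 15.1, 14.3, 16.8 and 14.5 RPKM in WT livers, 17.1, 15.7, 15.4, 12.9 and 13.4 in Ex3 livers and 16.9, 14.5, 13.1, 13.7 and 15.2 in MYC livers. In MYC+Ex3 livers it measured 19.7, 19.4, 14.1, 15.1 and 13.5. The ranges overlapped in every pair of genotypes. The log2 change was 0.01 with Ex3 (95% interval -0.24 to 0.26), -0.01 with MYC (-0.26 to 0.24) and 0.12 with both (-0.13 to 0.37), and none was called. The 2 highest MYC+Ex3 livers were the keratin-free ones. Within keratin-free livers the change with both alleles was 0.48 (adjusted p = 0.0551), and within keratin-bearing livers it was -0.11 (adjusted p = 0.561).

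Wwtr1, which encodes TAZ, the paralogue of YAP, was lower in the MYC livers. It measured 14.6, 15.6, 14.5, 16.3 and 14.6 RPKM in WT livers against 10.6, 10.4, 11.8, 12.2 and 13.1 in MYC livers. The 2 groups did not overlap, and the MYC mean was 23.5% lower. The log2 change was -0.36 (SE 0.108, limma adjusted p = 0.0205). In MYC+Ex3 livers Wwtr1 measured 11.3, 12.7, 13.7, 13.0 and 13.9, again below every WT liver, but the change of -0.22 was not called (adjusted p = 0.153). In Ex3 livers it measured 14.4, 14.5, 20.5, 14.01 and 16.6, which overlapped the WT range. MYC+Ex3 against Ex3 gave -0.28, not called (adjusted p = 0.0745), with no overlap between the groups. It was called there with a keratin term (0.0375), after rescaling (0.0491) and with a term for the largest series of animal numbers in the titles, 6 keratin-free livers (0.0455). The fall with MYC lost its call without WT liver 4 (-0.34, adjusted p = 0.0503), without MYC liver 1 (-0.33, 0.0580), in a fit of WT and MYC livers alone (0.0622) and within keratin-free livers (-0.33, 0.180). Without MYC liver 5 it was -0.40 (0.0126).

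Tead1 and Tead3, the TEAD genes that made up most of the TEAD transcript, were variable and not called in any day 4 comparison. Tead1 measured 3.24, 6.42, 4.73, 5.43 and 5.29 RPKM in WT livers and 6.05, 3.99, 4.87, 4.55 and 9.66 in MYC livers. Tead3 measured 3.51, 3.52, 6.15, 3.84 and 3.07 in WT livers and 5.64, 5.25, 4.25, 2.90 and 5.21 in MYC livers. With MYC the log2 changes were 0.15 for Tead1 (95% interval -0.26 to 0.56) and 0.18 for Tead3 (-0.25 to 0.60), intervals wide enough to hold a moderate change either way. In the Ex3 livers Tead1 ranged from 3.80 to 6.60 and Tead3 from 3.42 to 6.67, and in the MYC+Ex3 livers from 3.92 to 5.73 and from 2.99 to 5.89. As a share of the summed RPKM of the 4 TEAD genes, Tead1 made up 48.1% ± 8.46 and Tead3 38.4% ± 8.21 in WT livers (SD, n = 5). Tead2 and Tead4 rested on 5 to 30 and on 3 to 37 reads per day 4 library, and no difference between genotypes was tested for them. Tead2 ranged from 0.339 to 1.28 RPKM and Tead4 from 0.212 to 1.78. MYC liver 5, the library with both Xist and Ddx3y, held the highest value of Tead1 (9.66), Tead2 (1.28) and Tead4 (1.78) among all 20 livers.

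Lats2, a kinase that inhibits YAP and TAZ, was lower in the livers with MYC, alone or beside Ex3. It measured 8.43, 9.80, 10.2, 8.81 and 9.94 RPKM in WT livers and 9.52, 10.2, 8.28, 8.42 and 8.87 in Ex3 livers. With MYC it measured 6.14, 7.73, 5.87, 4.34 and 9.55, and with both alleles 7.37, 6.20, 7.25, 5.66 and 5.97. All MYC+Ex3 livers lay below all WT and all Ex3 livers, while MYC liver 5 lay inside the WT range. The log2 change with MYC was -0.47 (SE 0.147, limma adjusted p = 0.0259), a mean 28.8% lower. With both alleles it was -0.48 against WT (adjusted p = 0.0210) and -0.43 against Ex3 (adjusted p = 0.0421). Neither Ex3 alone (-0.05, 95% interval -0.36 to 0.25) nor Ex3 added to MYC (-0.01, -0.32 to 0.29; 0.190% called) moved Lats2 past the threshold. The interaction of the alleles was 0.04 (-0.39 to 0.47), and 0% of genes were called for it in limma, where 132 genes had an unadjusted p under 0.05.

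The day 4 calls of Lats2 lay close to the threshold. With MYC, the call was lost without WT liver 2, 3 or 5 or MYC liver 1, 3 or 4 in turn (adjusted p from 0.0520 to 0.0798) and was stronger without MYC liver 5 (-0.59, adjusted p = 0.00300). It was also lost in a fit of WT and MYC livers alone (0.103) and within keratin-free livers (-0.33, 0.351). With both alleles against WT, the call was lost without MYC+Ex3 liver 4 (-0.44, 0.0522) and within keratin-free livers (-0.41, 0.232), and held within keratin-bearing livers (-0.53, 0.0224). Against Ex3 livers it was lost without WT liver 5, any 1 of the 5 Ex3 livers, MYC liver 1 or MYC+Ex3 liver 2, 4 or 5 (0.0501 to 0.0964), and within either keratin class (0.177 and 0.0853). With a term for each of the 7 number series of the animals in the titles, of which 3 hold a single liver, all 3 calls were lost (-0.41, adjusted p = 0.191 with MYC; -0.42, 0.137 with both alleles; -0.47, 0.0932 against Ex3). The direction was lower in each of these fits.

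Some markers of liver cell types changed in the same livers. The shares of all genes called were 5.36% lower and 16.9% higher in MYC livers, and 6.18% and 17.9% in MYC+Ex3 livers. For MYC+Ex3 against Ex3 livers they were 4.70% and 16.4%. Of 7 endothelial markers, Kdr (-0.80) and Tek (-0.63) were called lower in MYC livers and Tek (-0.67) in MYC+Ex3 livers. None was called in MYC+Ex3 against Ex3 livers, where the median log2 change of the 7 was -0.30, beside 0.03 for all genes. The summed RPKM of these markers was 163 to 275 in WT livers and 168 to 227 in Ex3 livers. It was 112 to 215 in MYC livers and 111 to 212 in MYC+Ex3 livers, and no marker was at 0 in any group. Of 8 stellate cell and fibroblast markers, Acta2 (1.59) and Col1a1 (1.19) were called higher in MYC livers, and in MYC+Ex3 livers Col1a1 (1.32) was called higher and Dcn (-0.56) and Lrat (-0.82) lower. Of the 7 hepatocyte markers, Tat (-0.57) was called lower in MYC livers, Hnf4a (-0.29) in MYC+Ex3 livers and Tat (-0.63) against Ex3 livers. Of 7 macrophage markers, only Cd68 (0.92) was called in MYC livers, and it was higher. The median log2 change of the 7 there was -0.27, beside 0.07 for all genes. The cholangiocyte marker Epcam (-1.14) was called lower in MYC+Ex3 against Ex3 livers. In whole-tissue RNA, fewer cells of a type and less RNA per cell cannot be told apart, and the part of cell composition in the fall of Lats2 was not tested.

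Lats1, the other LATS kinase, and Sav1, the scaffold of the upstream kinases, were not called on day 4. Lats1 measured 20.8, 23.5, 22.0, 28.4 and 26.4 RPKM in WT livers, 24.3, 24.4, 25.9, 18.7 and 21.6 in Ex3 livers, 21.2, 21.6, 21.4, 19.4 and 21.2 in MYC livers and 26.2, 28.3, 21.9, 21.0 and 21.9 in MYC+Ex3 livers. The MYC livers were the tightest of the 4 groups and sat at or below the lower part of the WT range (log2 change -0.19, 95% interval -0.43 to 0.04, adjusted p = 0.226). Sav1 measured 13.2, 13.8, 17.6, 16.0 and 13.7 in WT livers and 12.5, 9.82, 13.2, 13.0 and 14.5 in Ex3 livers, where its change was -0.22 (-0.46 to 0.02, adjusted p = 0.952). In MYC and MYC+Ex3 livers Sav1 ranged from 12.3 to 16.0 and from 13.0 to 16.3, overlapping the WT livers.

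Vgll4, which competes with YAP and TAZ for TEAD, had its highest group means in livers with the Ex3 allele. It measured 7.52, 6.29, 10.7, 4.63 and 6.87 RPKM in WT livers and 11.0, 11.0, 8.69, 9.71 and 8.61 in Ex3 livers. In MYC livers it measured 6.92, 7.08, 6.89, 4.89 and 7.74, and in MYC+Ex3 livers 9.68, 9.04, 7.68, 8.13 and 10.3. WT liver 3, at 10.7, lay inside the Ex3 range and above every MYC+Ex3 liver, and the MYC and MYC+Ex3 groups met at 7.74 and 7.68. Keratin-free livers were higher among WT (7.52 to 10.7 against 4.63 to 6.87) and Ex3 livers (11.0 against 8.61 to 9.71). The log2 change was 0.43 for Ex3 against WT (95% interval 0.09 to 0.77) and 0.38 for MYC+Ex3 against MYC (0.04 to 0.71). Unadjusted p-values were 0.0146 and 0.0300, but over all genes neither was called (adjusted p = 0.733 and 1.00). For MYC+Ex3 against WT the change was 0.32 (adjusted p = 0.164), and without WT liver 3 it was called (0.45, 0.0320). That liver held the highest WT value, so leaving it out widens the difference and narrows the spread by itself. No call is drawn from that fit. No member passed the test for Ex3 against WT, for MYC+Ex3 against MYC livers or in the interaction.

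In the tumour set Lats2 fell in both kinds of tumour, while Lats1 and Sav1 rose in MYC+Ex3 tumours, a rise that was not called after rescaling. Of the 9 members tested, Tead2 passed the filter only through the tumours in which it was high, so its call (higher in MYC tumours) is not counted and its values are given as a description. Of the other 8, MYC tumours differed from WT 4-OHT livers in 1, Lats2 (lower). MYC+Ex3 tumours differed in 3, Lats2 (lower), Lats1 and Sav1 (both higher). Of all genes tested, 13.7% were called lower and 36.2% higher in MYC tumours, and 18.4% lower and 42.3% higher in MYC+Ex3 tumours. None of these 8 differed between the 2 kinds of tumour, where 2.02% of genes were called higher and 2.10% lower.

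**Figure D2:**
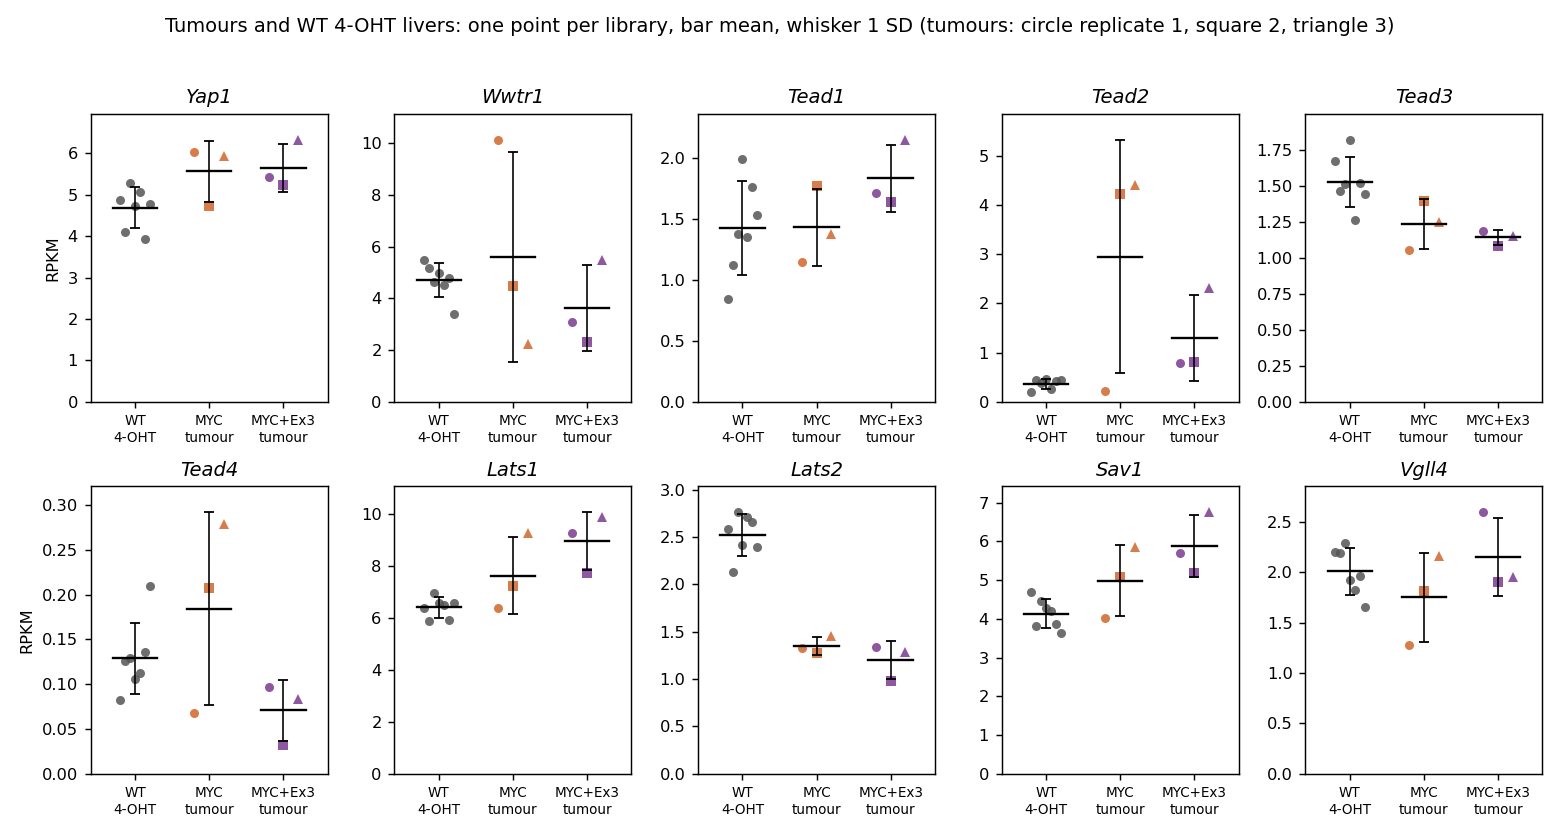
RPKM of the 10 genes (y axes, each from 0) in 7 WT 4-OHT livers, 3 MYC tumours and 3 MYC+Ex3 tumours (x axes). Each point is 1 library, the bar is the mean, the whisker is 1 SD, and tumours are drawn by replicate (circle 1, square 2, triangle 3); Lats2 lies at 0.976 to 1.45 in the 6 tumours and at 2.13 to 2.76 in the livers, and Tead2 is near the liver level in MYC tumour 1 and above 4 in the other MYC tumours.

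Lats2 measured 1.33, 1.27 and 1.45 RPKM in MYC tumours and 1.34, 0.976 and 1.29 in MYC+Ex3 tumours. In the 7 WT 4-OHT livers its lowest, median and highest values were 2.13, 2.58 and 2.76. All 6 tumours lay below all 7 livers, with means 46.4% and 52.3% lower. The log2 change was -0.58 in MYC tumours (SE 0.097, limma adjusted p = 0.000271) and -0.68 in MYC+Ex3 tumours (SE 0.097, adjusted p = 3.96e-05). Both calls held when any 1 of the 13 libraries was left out (adjusted p at most 0.00129 and 0.000539) and after rescaling (-0.75 and -0.86). The tumours did not differ from each other (-0.10, 95% interval -0.34 to 0.15). Whether the fall was larger in tumours than on day 4 was not tested, since the sets differ in scale, controls and Cre.

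Lats1 measured 6.39, 7.21 and 9.25 RPKM in MYC tumours and 9.25, 7.71 and 9.86 in MYC+Ex3 tumours, against 5.89 to 6.96 (median 6.47) in WT 4-OHT livers. Sav1 measured 4.03, 5.08 and 5.86 and then 5.71, 5.17 and 6.75, against 3.64 to 4.70 (median 4.19). For both genes all MYC+Ex3 tumours lay above all livers, while MYC tumour 1 lay inside the liver range. In MYC+Ex3 tumours the log2 change was 0.42 for Lats1 (adjusted p = 0.00486) and 0.42 for Sav1 (adjusted p = 0.00587). After rescaling to the median gene these changes were 0.16 (adjusted p = 0.169) and 0.17 (adjusted p = 0.113) and not called. In MYC tumours the changes were 0.21 for each and not called, and without MYC tumour 1 they were 0.31 (0.0428) and 0.33 (0.0294) and called. That tumour held the lowest value of both genes among the MYC tumours, so leaving it out widens the difference by itself. No call is drawn from that fit.

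Yap1 measured 6.04, 4.72 and 5.93 RPKM in MYC tumours and 5.42, 5.23 and 6.31 in MYC+Ex3 tumours. The WT 4-OHT livers ranged from 3.93 to 5.29 (median 4.77), overlapping both kinds of tumour. The changes of 0.21 (95% interval -0.03 to 0.44) and 0.23 (-0.004 to 0.46) were not called (adjusted p = 0.129 and 0.0824), and after rescaling they were -0.01 and -0.02. Relative to the median gene, the transcript of YAP was level in both kinds of tumour.

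Wwtr1 differed more among tumours of 1 genotype than between genotypes. It measured 10.1, 4.47 and 2.23 RPKM in the 3 MYC tumours and 3.09, 2.32 and 5.49 in the 3 MYC+Ex3 tumours, against 3.41 to 5.50 (median 4.78) in the livers. MYC tumour 1 was above every liver, and MYC tumour 3 and MYC+Ex3 tumours 1 and 2 were below every liver. The log2 change was 0.04 in MYC tumours (95% interval -0.58 to 0.65), and without MYC tumour 1 it was -0.43 (adjusted p = 0.131). In MYC+Ex3 tumours it was -0.35 (-0.96 to 0.26, adjusted p = 0.305). No call was made, and the direction in MYC tumours rested on tumour 1.

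Tead2, a TEAD gene with low transcript in adult liver, was highest in MYC tumours 2 and 3. It measured 0.216, 4.21 and 4.41 RPKM in the 3 MYC tumours, on 18, 572 and 569 reads. In MYC+Ex3 tumours it measured 0.779, 0.805 and 2.31, and the livers ranged from 0.201 to 0.455 (median 0.420). MYC tumour 1 lay within the liver range, and every other tumour lay above it. The MYC tumour mean was 7.99 times the liver mean, with a log2 change of 1.25 (SE 0.358, limma adjusted p = 0.0102). No WT 4-OHT liver reached an RPKM of 1, so the gene was tested only because 3 tumours did, and its p-values are given as a description. Without MYC tumour 1 the change was 1.96 (3.64e-06), and against the 3 WT livers of the S15 title series alone the call was lost (1.25, 0.0753). In MYC+Ex3 tumours the change was 0.69 (-0.08 to 1.45, adjusted p = 0.111). MYC tumour 1 had the lowest Tead2 of the 6 tumours, so leaving it out widens the difference and narrows the spread by itself. The values without it (0.69 in MYC+Ex3 tumours and -1.27 between the tumours) are given for completeness, and no call is drawn from them.

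MYC tumour 1 also stood apart in genes outside the pathway. Afp, the fetal liver marker alpha-fetoprotein, was at 1.97 RPKM in it, within the 0.864 to 2.88 of the livers, against 29.6 and 33.5 in the other MYC tumours and 34.5 to 42.1 in MYC+Ex3 tumours. Mki67, a proliferation marker, was at 12.7 RPKM in it, against 21.7 to 29.6 in the other 5 tumours and 4.53 to 9.37 in the livers. In Igf2, a growth factor of fetal liver, it did not stand apart, at 44.6 beside 35.6 to 45.3 in the other tumours, against at most 0.121 in the livers.

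Tead2 shifted the makeup of the TEAD transcript. Its share of the summed RPKM of the 4 TEAD genes was 8.70%, 55.5% and 60.3% in MYC tumours and 20.7% to 40.6% in MYC+Ex3 tumours, against 7.20% to 14.2% in the livers. Tead1 measured 1.14, 1.77 and 1.38 RPKM in MYC tumours and 1.71, 1.64 and 2.15 in MYC+Ex3 tumours, overlapping the livers (0.841 to 1.99), and was not called. Tead3 measured 1.05, 1.397 and 1.25 and then 1.19, 1.08 and 1.15, against 1.26 to 1.81. All MYC+Ex3 tumours lay below all livers for Tead3 (-0.24, adjusted p = 0.0508), and without MYC tumour 1 this was called (0.0336). That tumour is in neither group compared, so leaving it out does not move the change itself. No call is drawn from that fit. After rescaling Tead3 was called lower in MYC+Ex3 (-0.40, 0.00411) and MYC tumours (-0.33, 0.0165). Tead4 was at 0.0322 to 0.279 RPKM in all libraries of this set, on 3 to 32 reads, and was not tested.

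Vgll4 measured 1.28, 1.82 and 2.16 RPKM in MYC tumours and 2.60, 1.90 and 1.96 in MYC+Ex3 tumours, against 1.66 to 2.30 (median 1.97) in the livers. The ranges overlapped and neither change was called (-0.14 and 0.06). After rescaling the MYC tumours were called lower (-0.31, adjusted p = 0.0409).

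**Figure D3:**
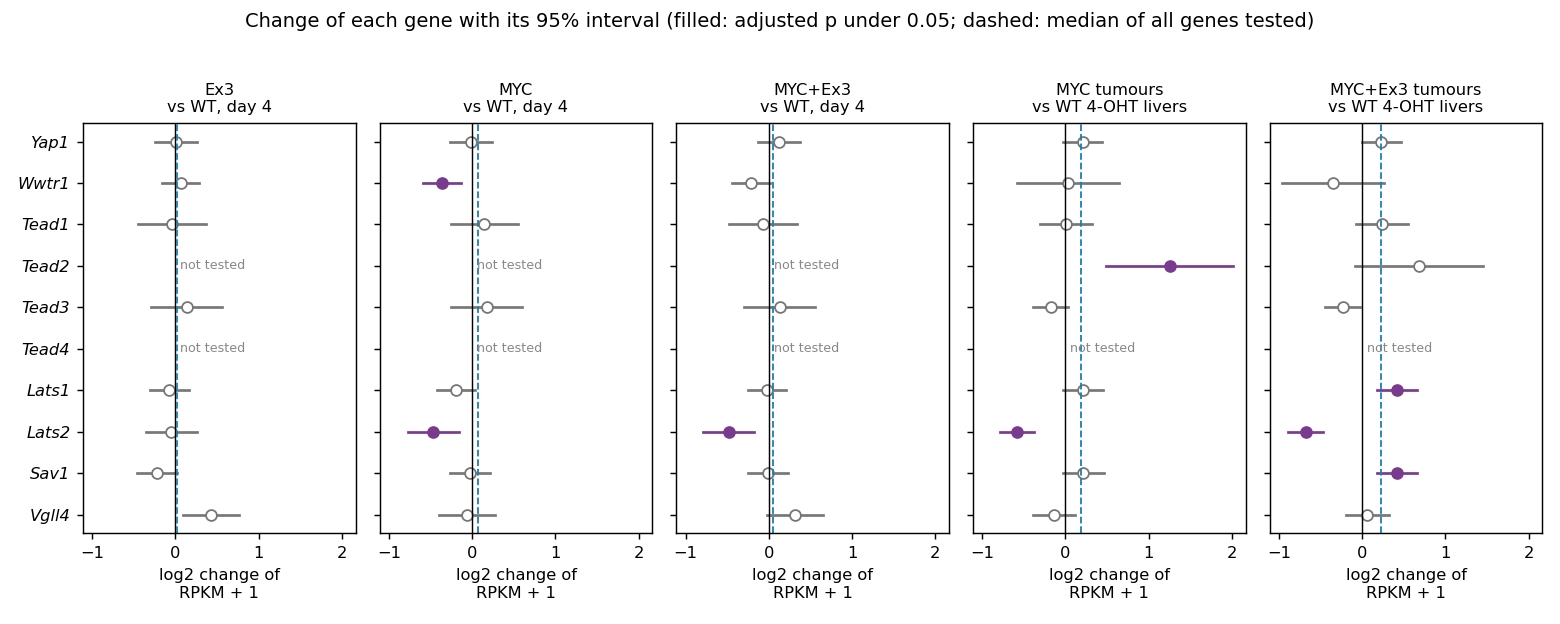
Log2 change of RPKM + 1 (x axes) of each gene (rows) in 3 day 4 comparisons and 2 tumour comparisons. Points are estimates, lines are 95% intervals, filled points have a limma adjusted p under 0.05 and the dashed line is the median of all genes tested. Lats2 is filled on the lower side in 4 of the 5 panels, from -0.47 to -0.68, and Yap1 is open in all 5. The filled point of Tead2 in MYC tumours is not counted as a call.

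Ratios within a library do not depend on its scaling. The ratio of Lats2 to Lats1 was 0.395 ± 0.0569 in WT day 4 livers (SD, n = 5) and 0.395 ± 0.0330 in WT 4-OHT livers (n = 7). It was 0.398 ± 0.0491 in Ex3 livers, 0.320 ± 0.0879 in MYC livers and 0.275 ± 0.0399 in MYC+Ex3 livers (n = 5 each). In MYC tumours it was 0.180 ± 0.0254 and in MYC+Ex3 tumours 0.134 ± 0.00937 (n = 3 each), and every tumour lay below every liver of its set. The 3 MYC+Ex3 tumours (0.127 to 0.145) also lay below the 3 MYC tumours (0.157 to 0.208). The ratio of Wwtr1 to Yap1 was 1.03 ± 0.0497 in WT day 4 livers and 0.799 ± 0.121 in MYC livers, which did not overlap (lowest WT liver 0.970, highest MYC liver 0.898). In MYC+Ex3 livers it ran from 0.574 to 1.03 and in Ex3 livers from 0.840 to 1.33. It spread from 0.376 to 1.67 over the MYC tumours and from 0.443 to 0.869 over the MYC+Ex3 tumours. These ratios are a description and were not tested.

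**Figure D4:**
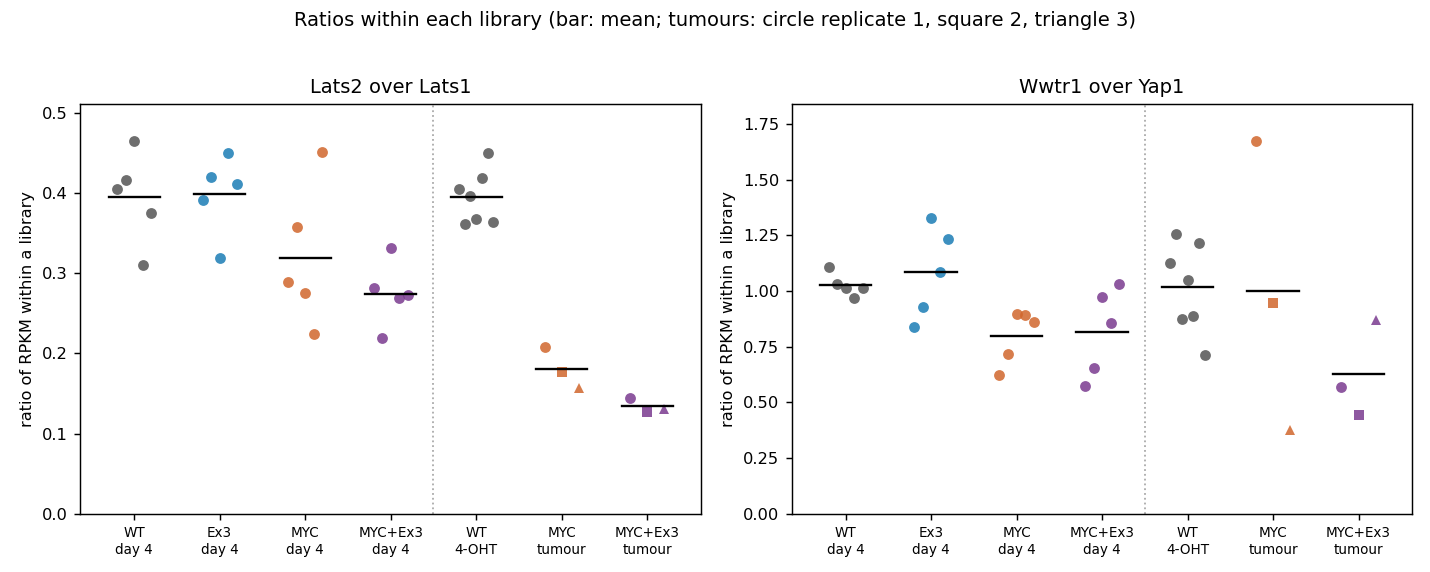
Ratio of Lats2 to Lats1 RPKM and of Wwtr1 to Yap1 RPKM within each library (y axes, from 0) by group (x axes). Each point is 1 library, the bar is the mean and tumours are drawn by replicate (circle 1, square 2, triangle 3); the Lats2 to Lats1 ratio is near 0.395 in both WT groups and at 0.127 to 0.208 in the 6 tumours.

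Markers of other liver cell types also changed in tumours, most of all those of endothelial cells and macrophages. The shares of all genes tested were 13.7% lower and 36.2% higher in MYC tumours, and 18.4% and 42.3% in MYC+Ex3 tumours. Of 7 endothelial markers, 5 were called lower in each kind of tumour, and their summed RPKM was 42.9 to 71.7 in WT 4-OHT livers, 24.0 to 39.6 in MYC tumours and 25.7 to 30.2 in MYC+Ex3 tumours. Of 7 macrophage markers 6 were called lower in each, with a median summed RPKM of 123 in the livers, 63.8 in MYC tumours and 51.8 in MYC+Ex3 tumours. Of 8 stellate cell and fibroblast markers, 4 were called higher and 2 lower in MYC tumours, and 2 higher and 4 lower in MYC+Ex3 tumours. Of 7 hepatocyte markers, Alb (-0.35), Tat (-0.73) and Ttr (-0.38) were called lower in MYC+Ex3 tumours and none in MYC tumours. Of 3 cholangiocyte markers tested, 2 were called lower in MYC+Ex3 tumours, Spp1 (-1.37) among them. Both lymphocyte markers tested, Cd79a (-0.73) and Ptprc (-0.76), were also called lower in MYC+Ex3 tumours. No cholangiocyte or lymphocyte marker was called in MYC tumours. None of the endothelial or macrophage markers was at 0. The 4 proliferation markers (Mki67, Top2a, Ccnb1, Cdk1) were called higher in MYC and MYC+Ex3 livers and in both kinds of tumour. The part of these cell types in the changes of Lats2, Tead2 and Wwtr1 was not tested.

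The wider pathway was read from a list of 42 other Hippo genes in the table, 38 tested on day 4 and 34 in the tumour set. None was called with Ex3, in MYC+Ex3 against MYC livers or in the interaction, where 0.132%, 0.19% and 0% of all genes were called. With MYC 3 of 38 were called higher and 1 lower, beside 16.9% and 5.36% of all genes. With both alleles the counts were 3 and 1 (17.9% and 6.18% of all genes), and in MYC+Ex3 against Ex3 livers 4 and 1 (16.4% and 4.70%). In MYC tumours 7 of 34 were called higher and 4 lower (36.2% and 13.7% of all genes), and in MYC+Ex3 tumours 15 and 6 (42.3% and 18.4%). After rescaling, the day 4 counts became 2 higher and 3 lower in each of the 3 comparisons with MYC. Of all 13688 genes, rescaling gave 1869 higher and 1334 lower with MYC and 2032 and 1355 with both alleles. Against Ex3 livers it gave 1911 and 1039. Within keratin-free livers the MYC counts of the list were 1 and 0, without MYC liver 5 they were 4 and 3, and with a term for the largest number series 6 and 1. With both alleles they were 1 and 4 within keratin-bearing livers and 3 and 3 within keratin-free ones, and against Ex3 livers 2 and 1 within keratin-bearing livers. After rescaling the tumour counts of the list became 4 and 11 in MYC tumours and 8 and 12 in MYC+Ex3 tumours. Of all 11854 genes, rescaling gave 3050 higher and 3124 lower in MYC tumours and 3704 and 3621 in MYC+Ex3 tumours. The balance of the list thus followed the scaling in both sets. All-gene counts under the keratin, number-series and leave-one-out fits are not given here. The list's median log2 change was -0.02 with MYC, 0.18 in MYC tumours and 0.24 in MYC+Ex3 tumours, beside 0.07, 0.19 and 0.23 for all genes.

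Stk3 and Stk4, the Hippo kinases themselves, were called in no comparison. Stk3 was at 13.1 ± 1.78 RPKM in WT and 12.4 ± 1.81 in MYC livers (SD, n = 5), with a log2 change of -0.07 (95% interval -0.33 to 0.19). In the 2 tumour comparisons its log2 change was 0.11 and 0.12. Stk4 changed by 0.05 with MYC (-0.16 to 0.25) and by 0.23 and 0.25 in tumours (95% intervals -0.01 to 0.47 and 0.01 to 0.48).

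Map4k4, a kinase that can act on LATS beside STK3 and STK4, had the largest rise of the list. It was at 4.33 to 7.28 RPKM in WT livers, 11.8 to 22.7 in MYC livers and 11.9 to 28.8 in MYC+Ex3 livers, with no overlap. Its log2 change was 1.32 with MYC (limma adjusted p = 0.000234) and 1.55 with both alleles (3.63e-05). In tumours it rose by 1.12 (2.26e-05) and 1.64 (4.03e-07), from 1.26 to 2.52 RPKM in the livers to 4.71 to 5.94 and 8.06 to 8.40. It stayed called in each alternative run, rescaling included.

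Stk38l, which encodes the LATS-related kinase NDR2, fell with MYC, from 16.7 to 25.1 RPKM in WT livers to 11.3 to 16.8 in MYC livers and 10.9 to 13.1 in MYC+Ex3 livers. Its log2 change was -0.58 (adjusted p = 0.00209) and -0.70 (0.000299), and within keratin-free livers -0.41 (0.167) and -0.50 (0.0919), no longer called. In MYC+Ex3 against Ex3 livers it was -0.43 (0.0180), a call lost within keratin-bearing (0.131) and keratin-free livers (0.101) and with a term for each number series (0.0592). Nf2, which encodes the upstream tumour suppressor merlin, was not called on day 4 (0.35 with MYC, adjusted p = 0.106). In tumours Nf2 rose by 0.69 (0.000397) and 0.80 (6.21e-05), and by 0.47 and 0.55 after rescaling, still called. The other day 4 calls of the list, named after their values were seen, were Rassf1 and Ajuba higher with MYC, Rassf1 and Fat1 higher with both alleles, and Rassf1, Fat1 and Limd1 higher in MYC+Ex3 against Ex3 livers. After rescaling, Rassf1 was not called with MYC, Fat1 not with both alleles, and Fat1 and Limd1 not against Ex3. Within keratin-free livers Rassf1 and Ajuba were not called with MYC, nor Limd1 against Ex3. Within keratin-bearing livers Rassf1 and Fat1 were not called with both alleles, nor Rassf1 and Limd1 against Ex3. With a term for each number series, Rassf1 and Ajuba lost their calls with MYC, and Fat1 lost its calls with both alleles and against Ex3.

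Amotl1 and Amotl2 are angiomotin genes whose proteins bind YAP and hold it at junctions. Amotl1 had the largest called fall of the list in MYC tumours and Amotl2 in MYC+Ex3 tumours. Amot, named after its values were seen, was called higher in both kinds (0.72 and 0.97), a call that rescaling removed in MYC tumours. Amotl1 fell by 0.61 (adjusted p = 0.000454) in MYC tumours and by 1.05 (2.98e-06) in MYC+Ex3 tumours. Amotl2 was at 3.71 to 5.56 RPKM in the livers, 2.79 to 4.31 in MYC tumours and 0.897 to 1.34 in MYC+Ex3 tumours. Its fall of 1.39 in MYC+Ex3 tumours (1.11e-06) kept its call in all 20 alternatives in which it was tested. The fall of 0.35 in MYC tumours (0.0367) was called in 12 of 20 alternatives. Amotl2 was the largest called fall of the list between the tumours (MYC+Ex3 against MYC -1.04, adjusted p = 0.00121), a call lost in a fit of the tumours alone (0.0797). Csnk1e, a kinase that marks YAP for degradation, was called higher there (0.56, 0.0467), a call lost in 15 of 18 alternatives. Wwc2, named after its values were seen, was the third call between the tumours. Cell type markers also differed there, with median log2 changes of -0.54 (endothelial), -0.53 (stellate cell and fibroblast) and -0.56 (cholangiocyte), 1 called lower in each list. The medians were -0.15 for macrophage, -0.33 for lymphocyte and -0.10 for hepatocyte markers, with none called, beside 0.03 for all genes. The part of cell composition in the calls between the tumours was not tested.

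Few published YAP and TAZ target genes were called on day 4, and in tumours more were called lower than higher. Of 21 in the table, 18 were tested on day 4 and 14 in the tumour set. Of all genes tested, 16.9% were called higher and 5.36% lower with MYC, and 17.9% and 6.18% with both alleles. With Ex3 0.132% were called. No target was called with MYC or with Ex3, and 1 was called lower with both alleles (Rbms3, an RNA-binding protein, -0.58, adjusted p = 0.00920). This call was lost within keratin-bearing livers (-0.45, 0.0970). In MYC+Ex3 against Ex3 livers 3 were called lower, Rbms3 (-0.60, 0.00744), Nuak2 (-0.81, 0.00815) and Igfbp3 (-0.92, 0.0341), beside 4.70% of all genes. Rbms3 lost this call within keratin-bearing livers (-0.49, 0.0908), and Nuak2 lost it within keratin-free livers (-0.89, 0.0711) and with a term for each number series (-0.81, 0.0530). Igfbp3 lost it in 8 of 31 alternatives, with adjusted p up to 0.132: with no filter, within keratin-bearing livers, and without Ex3 liver 1, 3 or 5 or MYC+Ex3 liver 1, 2 or 3 in turn. Without MYC liver 5, and also after rescaling (1334 of all 13688 genes lower), 3 targets were called lower in MYC livers. With a term for the largest number series 1 was (Rbms3). In MYC tumours 2 of 14 were called higher and 4 lower (36.2% and 13.7% of all genes), and in MYC+Ex3 tumours 2 and 7 (42.3% and 18.4%). Without MYC tumour 1 the counts in MYC tumours were 3 and 3. The list medians were -0.21 and -0.31 beside 0.19 and 0.23 for all genes. Lats2, kept among the members, belongs to the same published target list. Endothelial and macrophage markers were lower in the same tumours, and the part of cell composition in the target changes was not tested.

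Ctgf and Cyr61 are the targets most often used to read YAP activity, and of the 2 Ctgf was called higher in tumours. Ctgf was at 1.29 to 3.37 RPKM in WT 4-OHT livers, 3.66 to 6.60 in MYC tumours and 3.36 to 7.55 in MYC+Ex3 tumours. It rose by 1.06 (adjusted p = 0.00261) and 1.05 (0.00187) and stayed called in each alternative run. Cyr61 was not called in tumours (0.05 and -0.19). On day 4 Cyr61 was at 4.28 to 7.88 RPKM in WT livers, 5.37 to 20.7 in Ex3 livers, 4.02 to 11.9 in MYC livers and 4.74 to 19.6 in MYC+Ex3 livers, with changes of 0.94, 0.07 and 0.81, none called (adjusted p = 0.693, 0.912 and 0.0924). Ctgf changed by 0.20, 0.24 and 0.77 there, also not called. Within keratin-free livers both were called higher with the 2 alleles together (Ctgf 1.31, adjusted p = 0.0201; Cyr61 1.15, 0.0253), where 2 targets were higher and 3 lower, on 2 livers a group. Within keratin-bearing livers, with 3 a group, neither was called (0.40, 0.673 and 0.58, 0.342), and 1 target, Amotl2, was called lower. Nuak2, a kinase target, was the largest fall among called targets in MYC tumours (-0.86, 0.0121), and without MYC tumour 1 it was -0.50 (0.0828). Amotl2, on both lists, was the largest fall in MYC+Ex3 tumours.

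**Figure D5:**
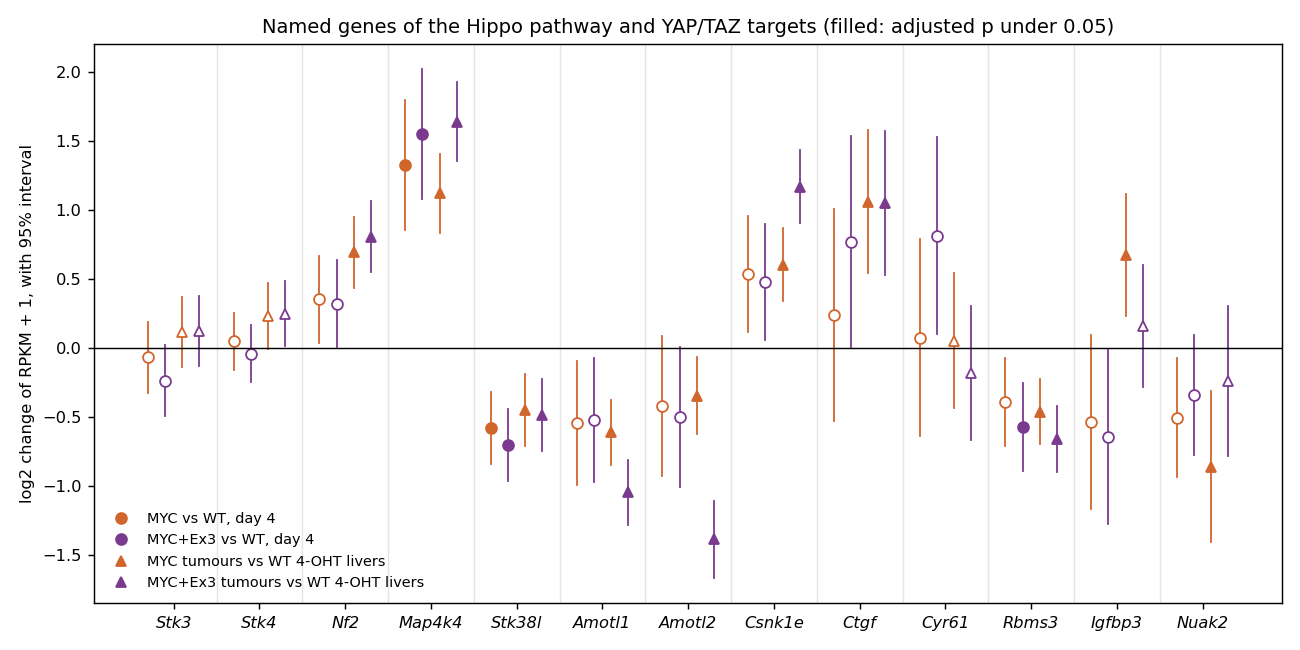
Log2 change of RPKM + 1 (y axis) with its 95% interval for named Hippo genes and YAP and TAZ targets (x axis). Circles are day 4 livers, triangles are tumours, orange is MYC and purple MYC+Ex3, each against its WT livers, and filled points have a limma adjusted p under 0.05; Map4k4 is filled at 1.12 to 1.64 in all 4 comparisons, Stk38l is filled at -0.45 to -0.70 in all 4, and Ctgf is filled only in tumours.

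The genes most like Yap1 and Wwtr1 across libraries were found by Pearson's r of log2(RPKM + 1) over all genes tested. Over the 20 day 4 livers these were Ccdc6 (r = 0.855), Srrm2 (0.854) and Huwe1 (0.844) for Yap1, and Secisbp2l (0.824), Stard4 (0.820) and Gpcpd1 (0.819) for Wwtr1. Over the 13 libraries of the tumour set they were Ccdc84 (0.930), Yy1 (0.927) and Tmem115 (0.927) for Yap1, and Nipal3 (0.922), Ackr2 (0.897) and Bckdhb (0.885) for Wwtr1. No gene was on both lists of Yap1 or of Wwtr1. Among the members, Yap1 went with Lats1 over the day 4 livers (r = 0.722) and not with Wwtr1 (r = -0.16). The libraries share scaling and, in part, genotype, so these values are a description.

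The authors' deposited table also gave lower Lats2 in each comparison of MYC with WT. In the authors' deposited table its log2 fold change was -0.57 (adjusted p = 0.0151) in MYC livers, -0.61 (0.000276) in MYC+Ex3 livers, -1.10 (8.19e-21) in MYC tumours and -1.28 (1.13e-23) in MYC+Ex3 tumours. Wwtr1 in the authors' deposited table was at -0.48 (0.00293) in MYC livers and at -0.61 (0.00523) in MYC+Ex3 tumours, the second not called here. The authors' deposited table further gave Tead2 at 2.31 (4.85e-05) and 1.47 (0.000132) and Tead3 at -0.51 (0.00709) and -0.64 (6.47e-05) in MYC and MYC+Ex3 tumours, Vgll4 at -0.40 (0.0294) in MYC tumours, and Lats1 at 0.26 (0.0106) and Sav1 at 0.29 (0.00408) in MYC+Ex3 tumours. Tead2 in MYC+Ex3 tumours, Tead3 in both kinds of tumour and Vgll4 in MYC tumours were not called in the main limma fit here. The Tead2 call in MYC tumours is not counted here. After rescaling, Tead3 in both kinds of tumour and Vgll4 in MYC tumours were called lower. Of the genes with an adjusted p in the authors' deposited table, 20.5% were under 0.05 in MYC livers and 27.8% in MYC+Ex3 livers. Against WT 4-OHT livers the share was 44.5% in MYC tumours and 60.7% in MYC+Ex3 tumours. Members under 0.05 numbered 2, 1, 4 and 6 in these comparisons, in the same order. These counts do not set the members apart from the other genes. For Ex3 against WT, MYC+Ex3 against MYC livers and MYC+Ex3 against MYC tumours, no member was under 0.05 in the authors' deposited table. The shares of genes under 0.05 there were 0.765%, 0.276% and 4.49%.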

How the data were processed

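Total RNA was made into strand-specific TruSeq libraries, per the labels' protocols. The submitters' processing notes name TopHat2 2.0.8, TopHat, SAMtools, featureCounts 1.4.5-p1, DESeq2 and build mm9. The annotation, removal of duplicate reads and use of strand in counting are not given in the sources used here, so overlapping transcripts may share reads. The authors deposited RPKM per gene and library, with the log2 fold change and adjusted p-value of their own comparisons beside them. These last columns were only copied. All columns of values were matched to samples of this series, so 0 were left aside.

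The reads behind each value were recovered from the step size of a gene's RPKM (100% of values came out whole within 0.05 of a read, for all but the 1186 genes at 0 throughout). These reads were used for depth only. Because the values are RPKM, limma 3.58.1 (R 4.3.3) was used on log2(RPKM + 1). Two-sided moderated tests with a mean-variance trend and Benjamini-Hochberg adjustment were fitted to the 20 day 4 livers with 4 group means and to the 13 tumours and 4-OHT livers with 3. Genes at an RPKM of 1 in at least 3 libraries were tested. The fit was tested on simulated data. The 9 comparisons are those of the report. Replicate numbers follow the order of the records and name livers only. Sex was read from Xist and Ddx3y.

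The members, the lists and the tests were chosen with earlier results of these data known. Named are the members, the largest called rise and fall of each list in each comparison at a mean RPKM of at least 1, Stk3, Stk4, Nf2, Ctgf and Cyr61, and the 3 genes most correlated with Yap1 and Wwtr1. Alternatives were a pseudocount of 0.1, no filter, a filter at an RPKM of 5, rescaling by the median ratio, sex, only the groups compared, a keratin term, keratin classes, title series of the 4-OHT livers and each library left out. Terms for the series of animal numbers in the titles of the day 4 livers were added after the data were seen. Hepatocyte, cholangiocyte, endothelial, stellate cell, macrophage, lymphocyte, keratinocyte and proliferation markers were measured.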

Additional observations from a re-analysis of the deposited data

Results flagged for a closer look

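In 50 groups of 5 or 7 libraries, 5 held a library whose gap to its nearest neighbour took up more of the range than Dixon's 95% critical value, and chance flags about 1 group in 20. Tead4 in MYC day 4 liver 5 was at 1.78 RPKM, against 0.212 to 0.439 in the other MYC livers. This is the library that holds both Xist and Ddx3y. Tead4 in WT 4-OHT liver 7 was at 0.210 RPKM, against 0.0822 to 0.136. Tead2 in MYC+Ex3 day 4 liver 4 was at 1.12 RPKM, against 0.534 to 0.653. Tead3 in WT day 4 liver 3 was at 6.15 RPKM, against 3.07 to 3.84. Lats1 in MYC day 4 liver 4 was at 19.4 RPKM, against 21.2 to 21.6, and this was the 1 keratin-bearing liver of its group. The tumour groups, with 3 libraries each, were too small for this check.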

How the results depend on the processing

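No member was called for Ex3 against WT, MYC+Ex3 against MYC livers or the interaction under any alternative. With each library left out in turn, the number of members called ran from 0 to 2 for MYC against WT on day 4 (2 in the full fit), from 0 to 2 for MYC+Ex3 against WT (1) and from 0 to 1 for MYC+Ex3 against Ex3 (1). In the second set, Tead2 included, it ran from 1 to 4 for MYC tumours (2), from 3 to 5 for MYC+Ex3 tumours (3) and from 0 to 1 between the tumours (0), and each highest value was reached without MYC tumour 1. Each of these highest values counts Tead2, from which no call is drawn. Nor is a call drawn there for Lats1 and Sav1 in MYC tumours or for Tead3 in MYC+Ex3 tumours. For MYC against WT on day 4, 0 members were called in a fit of only the groups compared and within keratin-free livers. For MYC+Ex3 against WT, 0 were called within keratin-free livers. For MYC+Ex3 against Ex3, 0 were called with no filter, with sex as a covariate and within either keratin class, and 2 were called after rescaling and with a keratin term. For MYC tumours, 0 were called with a filter at an RPKM of 5, which leaves out Lats2 and Tead2, 4 after rescaling, 1 with only the groups compared and 1 against the S15 livers alone. Chosen after seeing the data, a term for the largest series of animal numbers in the titles against the others gave 2 members for MYC+Ex3 against Ex3, and a term for each number series gave 1 for MYC against WT (Wwtr1), 0 for MYC+Ex3 against WT and 0 for MYC+Ex3 against Ex3. No called change reversed. MYC against WT within keratin-bearing livers was not run, as 1 MYC liver was keratin-bearing. No paired analysis was possible because replicate numbers follow the order of the records and each animal number in the titles belongs to 1 library; number series are shared between groups, but the labels do not say that they mark a litter or a day. Depth limits Tead2 and Tead4 on day 4, which rest on at most 30 and 37 reads per library.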
